A study of Canis lupus familiaris with 15 samples.

Results

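Leukocyte surface antigens and innate receptors were followed in the corpus luteum (CL) of 15 dogs by RNA-Seq, which counts the reads that fall on each gene. The set was chosen by name among the genes that the study itself listed as differentially expressed between its groups. A gene was a member when its dog symbol began with CD and a digit, FCGR, FCER, CLEC, SIGLEC, LILR, TREM or MS4A, with CD248 left out. This gave 31 members among the 23630 genes of the count table, of which 24 carried a CD name, 4 a CLEC name, 2 a TREM name and 1 an MS4A name. No FCGR, FCER, SIGLEC or LILR symbol was found among the 2970 listed genes with a symbol. All 31 members passed the filter on low counts, a mean of 10 reads in at least 1 group. Of these, 6 passed through 1 group alone, CLEC5A, TREML2, CD300E, CD300LB and CD70 through luteolysis and CD7 through mid-gestation, so that they had to differ between groups. Because the lists came from the same dogs, values and calls in the 4 contrasts of the study are a description of the members, and nothing is supported with them.

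The CL is the source of progesterone (P4) throughout canine pregnancy. Before parturition it is broken down rapidly, whereas in the non-pregnant dog it regresses slowly. Leukocytes and endothelial cells form part of the gland, and their surface antigens sort into functional classes. Innate receptors of myeloid cells recognise microbial or damage-related structures and signal through adaptors such as TYROBP. Costimulatory ligands on antigen-presenting cells engage receptors on T cells, and complement regulators protect host cells from lysis.

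Each dog gave 1 library. The mid-gestation group held 5 pregnant dogs at days 35 to 40 after ovulation. The antigestagen group held 5 pregnant dogs given aglepristone, a blocker of the P4 receptor, at 10 mg/kg in 2 applications 24 h apart between days 40 and 45, with CL taken 24 h after the second one. The luteolysis group held 3 pregnant dogs before parturition. P4 was followed every 6 h from day 58 of pregnancy until 3 measurements in a row lay below 2 to 3 ng/ml. The luteal regression group held 2 non-pregnant dogs at day 65 after ovulation. The third dog that the study counted was not analysed here. The animals were cross-breed bitches aged 2 to 8 years. The description of the mid-gestation dog Nescafe gave the number of another group, and its title and condition were followed.

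Total counts per dog ran from 8558743 to 26284315 reads. Levels are given as CPM, the read count relative to a library size scaled by the TMM method; they are compared between dogs but not between genes, since gene length was not used. Whole CL was sequenced, so that fewer cells of a type and less RNA per cell cannot be told apart. The luteolysis dog Amy stood apart from the luteolysis dogs Kimba and Senta. Outside the range of the 5 mid-gestation dogs, Amy had 10 members above and 10 below, Kimba 17 above and 10 below, and Senta 20 above and 10 below. Over all 14922 genes of the fit the corresponding shares were 21.8% above and 18.2% below for Amy, 29.5% and 25.6% for Kimba, and 26.7% and 26.3% for Senta. In luteal regression, Lissy had 2 members above and 13 below that range, and Mara 2 above and 17 below, where the shares of all genes were 24.3% above and 24.3% below for Lissy and 19.5% and 22.1% for Mara. The highest value over all 15 dogs belonged to Senta in 13 members and to Kimba in 6, and the corresponding share of all genes was not counted. The members were chosen through contrasts of these same dogs. Nothing is read from the counts outside the mid-gestation range or from those of highest values. The map of all members by dog shows these patterns side by side.

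**Figure D1:**
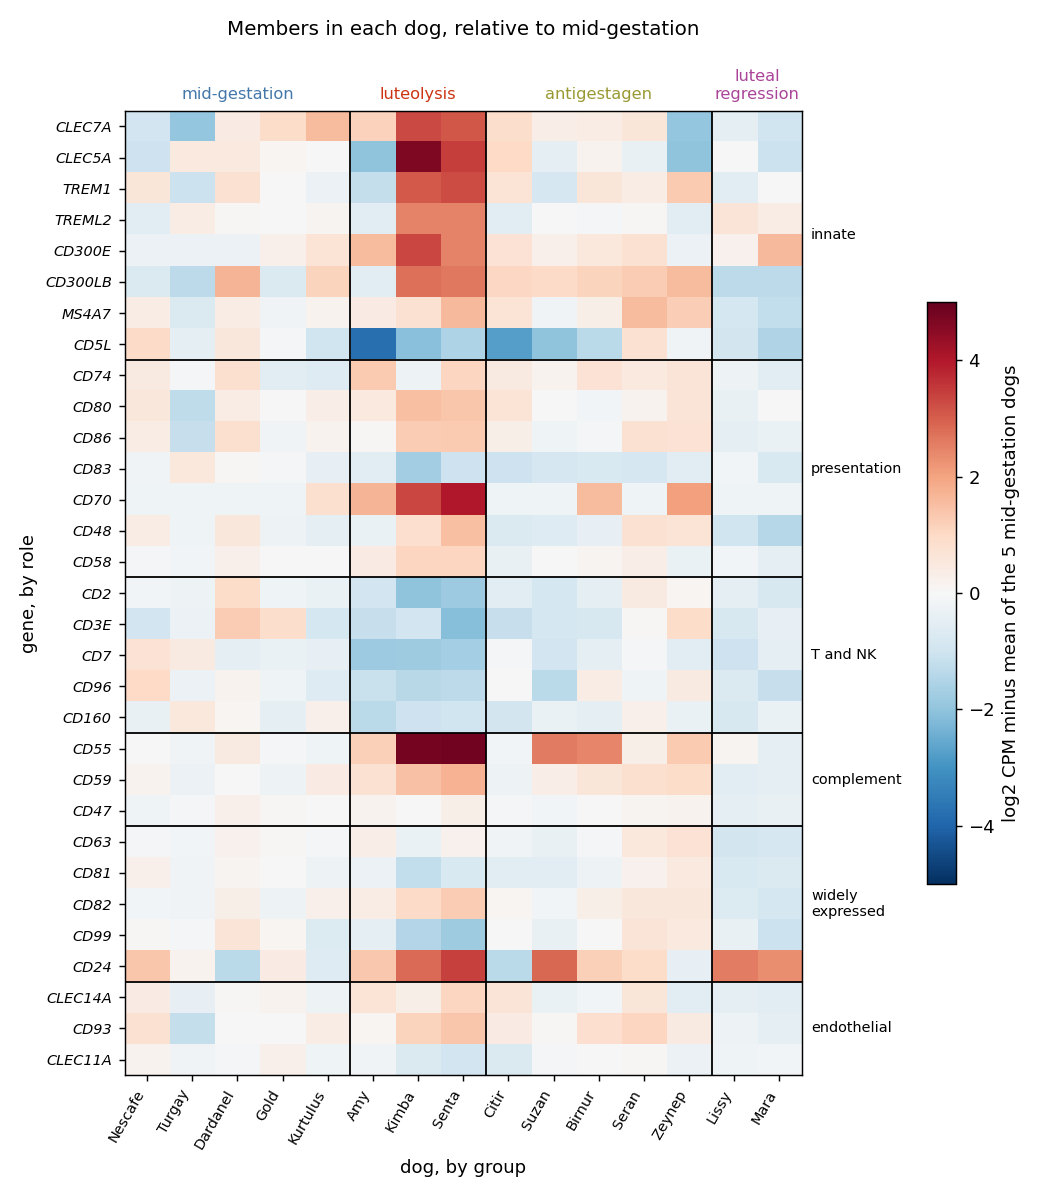
Log2 CPM of the 31 members (rows, by role) in the 15 dogs (columns, by group), minus the mean of the 5 mid-gestation dogs; red is higher and blue lower. Kimba and Senta are red for most innate receptors and for CD55 and CD70, the T and NK antigens are blue in all 3 luteolysis dogs, and Lissy and Mara are pale blue in most rows.

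Differentially expressed genes (DEG) were those with p below 0.01 and an adjusted p below 0.1 in edgeR's quasi-likelihood test, the limits used by the study. In mid-gestation over luteolysis, 14 of 31 members were DEG, 4 higher and 10 lower at mid-gestation, where 2.43% of all genes tested were DEG in the higher and 5.73% in the lower direction. Higher were CD83, CD2, CD7 and CD99, and lower were CLEC5A, TREM1, TREML2, CD300E, CD70, CD58, CD55, CD59, CD82 and CD24. In luteal regression over luteolysis, 8 of 30 members tested were DEG, 0 higher and 8 lower in regression, against 1.52% and 3.58% of all genes (CD300LB, MS4A7, CD70, CD48, CD58, CD55, CD59 and CD82). In luteolysis over antigestagen, 7 of 30 members tested were DEG, 5 higher and 2 lower at luteolysis, against 3.12% and 1.62%; CLEC5A, TREML2, CD300E, CD58 and CD55 were the higher and CD2 and CD99 the lower ones. In mid-gestation over antigestagen, 0 of 26 members tested were DEG, beside 0% of all genes in either direction; 4 of the 26 had an unadjusted p below 0.05, where 6.81% of all genes reached it, and DESeq2's Wald test called 1, CD83, beside 0.604% of all genes. In the other contrasts of the study DESeq2 called 21 of 31 members in mid-gestation over luteolysis (11.9% of all genes), 18 of 30 in luteal regression over luteolysis (10.6%) and 11 of 30 in luteolysis over antigestagen (10.3%). The median log2 ratio of the members tested was −0.82 for mid-gestation over luteolysis, −1.28 for luteal regression over luteolysis, 0.60 for luteolysis over antigestagen and −0.06 for mid-gestation over antigestagen, and that of all genes −0.02, −0.05, 0.02 and −0.02. The median of −1.28 was the same with the 2 members at 0 reads in regression set to their bound. As the members were selected on these contrasts, and the 6 named above by a single group as well, nothing is read from these counts and medians. The members nearest the limit in mid-gestation over luteolysis were CD24, with an adjusted p of 0.098, and CD80, with 0.11; in luteal regression over luteolysis they were CD70, with 0.092, and CD47, with 0.103 (edgeR).

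In mid-gestation over luteolysis, 7 members were higher in every mid-gestation dog than in every luteolysis dog (CD5L, CD83, CD2, CD7, CD96, CD160 and CD81) and 7 were lower (CD300E, MS4A7, CD70, CD58, CD55, CD59 and CD82), where all genes gave 4.27% and 5.49%. In luteal regression over luteolysis, 4 of 30 members were higher and 16 lower without overlap, where all genes gave 18.6% and 19.5%. Without Amy, 22 of 31 members were DEG in mid-gestation over luteolysis and 16 of 30 in luteal regression over luteolysis, where 16.5% and 10.7% of the genes then tested were DEG. Without Kimba these counts were 3 of 29 (3.26% of genes) and 10 of 28 (7.05%), and without Senta 2 of 31 (0.762%) and 0 of 30 (0.0338%). In luteal regression over luteolysis, 0 of 30 members were DEG without Lissy (0% of genes) or without Mara (0.00674%). In luteolysis over antigestagen, 14 of 30 members were DEG without Amy (14.8%), 0 of 28 without Kimba (1.6%) and 0 of 30 without Senta (0.0414%). The cause of the distance between Amy and the other luteolysis dogs was not tested.

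The complement regulators CD55 and CD59 were higher in every luteolysis dog than at mid-gestation. CD55, the decay-accelerating factor that dissociates complement convertases, was the only member that all 4 lists of the study held. For mid-gestation over antigestagen, the study also listed genes that passed the unadjusted p limit alone. CD55 was no DEG in that contrast by edgeR (adjusted p = 0.601) or by DESeq2. It stood at 82.8, 71.8, 111, 79.4 and 71.3 CPM in the mid-gestation dogs Nescafe, Turgay, Dardanel, Gold and Kurtulus. At luteolysis it was at 190 CPM in Amy, 2290.2 in Kimba and 2300.1 in Senta. After antigestagen it was at 73.9 CPM in Citir, 494 in Suzan, 449 in Birnur, 102 in Seran and 205 in Zeynep, and in luteal regression at 90.4 in Lissy and 59.1 in Mara.

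Every luteolysis dog was thus above every mid-gestation dog for CD55, although Amy lay within the antigestagen range. The group means were 83.2 ± 16.2 CPM (SD, n = 5) at mid-gestation, 1593 ± 1216 (n = 3) at luteolysis, 265 ± 196 (n = 5) after antigestagen and 74.7 ± 22.2 (n = 2) in regression. The log2 ratio was −4.26 ± 0.68 (SE) for mid-gestation over luteolysis and −4.79 without Amy. For luteolysis over antigestagen it was 2.59 ± 0.65, for luteal regression over luteolysis −4.41 ± 1.01 and for mid-gestation over antigestagen −1.67 ± 0.58.

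CD59, which blocks the terminal membrane attack complex, moved over a narrower range. It was at 378, 274, 340, 282 and 445 CPM in the mid-gestation dogs Nescafe, Turgay, Dardanel, Gold and Kurtulus. The luteolysis dogs Amy, Kimba and Senta had 574, 939 and 1137 CPM, the antigestagen dogs Citir, Suzan, Birnur, Seran and Zeynep 284, 421, 515, 585 and 641 CPM, and the regression dogs Lissy and Mara 234 and 248 CPM. Amy was again the lowest of the luteolysis dogs, above all mid-gestation dogs and inside the antigestagen range. CD59 had a log2 ratio of −1.36 ± 0.27 for mid-gestation over luteolysis and −1.87 ± 0.36 for luteal regression over luteolysis. Group means were 344 ± 70.9 CPM at mid-gestation, 884 ± 286 at luteolysis, 489 ± 141 after antigestagen and 241 ± 10.1 in regression.

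CD47, the ligand of SIRPA that restrains phagocytosis, did not share this pattern. It was at 79.3, 87.4, 109, 95.5 and 89.5 CPM in the mid-gestation dogs in the order above, at 102, 92.8 and 113 CPM in the luteolysis dogs Amy, Kimba and Senta, and at 87.5, 83.2, 93.6, 99.8 and 103 CPM in the antigestagen dogs. Both regression dogs were lower than these, with 66.6 CPM in Lissy and 71.2 in Mara. The means were 92.2 ± 11.2, 103 ± 10.3, 93.5 ± 8.37 and 68.9 ± 3.27 CPM. THBS1, a soluble ligand of CD47, was at 1412.2 CPM in Kimba and 1381.9 in Senta but at 31.5 CPM in Amy, below the mid-gestation range of 82.7 to 349 CPM.

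**Figure D2:**
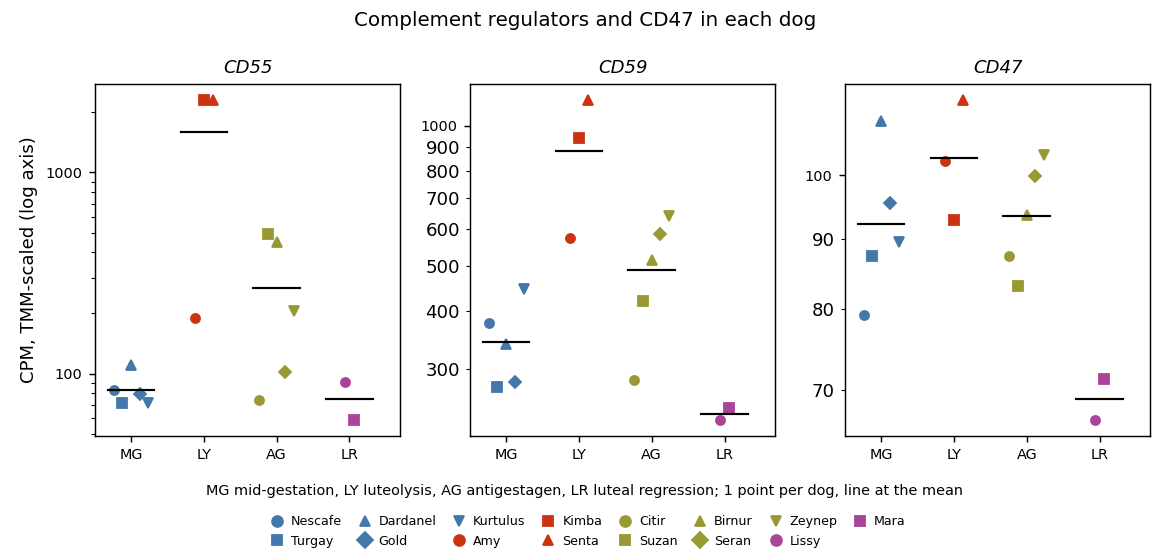
CPM of CD55, CD59 and CD47 on log axes, 1 point per dog, with the group mean as a line. For CD55, Kimba and Senta sit near 2300 CPM and Amy at 190 CPM, while for CD47 the 2 regression dogs lie below the dogs of the other groups.

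Among the innate receptors, Kimba and Senta were high and Amy was not. CLEC7A, the lectin dectin-1 that binds fungal beta-glucan, was at 0.105, 0, 0.442, 0.679 and 1.15 CPM at mid-gestation (Nescafe, Turgay, Dardanel, Gold, Kurtulus). Kimba had 3.99 CPM and Senta 3.48, whereas Amy, with 0.826 CPM, was inside the mid-gestation range. The antigestagen dogs Citir, Suzan, Birnur, Seran and Zeynep had 0.667, 0.41, 0.436, 0.532 and 0 CPM, and Lissy and Mara 0.196 and 0.103 CPM. CLEC7A was in 3 lists of the study but was no DEG by edgeR over all 15 dogs, while DESeq2's Wald test called it in each of the 3 contrasts with luteolysis; its log2 ratio for mid-gestation over luteolysis was −2.50 ± 0.85, and −2.93 without Amy.

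CLEC5A, a lectin that pairs with TYROBP on myeloid cells, was at 0.105, 0.514, 0.505, 0.365 and 0.324 CPM in the same mid-gestation dogs. It reached 11.2 CPM in Kimba (283 reads) and 4.75 in Senta (82 reads), and Amy had 0 reads. The antigestagen dogs had 0.778, 0.205, 0.392, 0.237 and 0 CPM, and the regression dogs 0.342 and 0.103 CPM. The luteolysis mean of 5.31 ± 5.62 CPM therefore joined the highest values of the series with a 0, and the group overlapped all others.

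TREM1, which amplifies inflammatory responses of monocytes and neutrophils, was at 1.57, 0.411, 1.77, 0.992 and 0.791 CPM at mid-gestation. Kimba had 9.09 CPM and Senta 10.4, and Amy 0.375, the lowest value of all 15 dogs. The antigestagen dogs had 1.67, 0.513, 1.57, 1.30 and 2.62 CPM, and the regression dogs 0.636 and 0.975 CPM. The log2 ratio for mid-gestation over luteolysis was −2.59 ± 0.71, and −3.15 without Amy.

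TREML2, the gene next to TREM1 in the RefSeq annotation (UU_Cfam_GSD_1.0), repeated the pattern at the limit of detection. It had 20 reads in Kimba, 14 in Senta and 0 in Amy, and at most 3 reads in any other dog. CD300E and CD300LB, activating receptors of the CD300 family, had 32 and 43 reads in Kimba, 11 and 27 in Senta and 4 and 1 in Amy. Elsewhere CD300E had at most 6 reads and CD300LB at most 13. Reads of close relatives within the TREM and CD300 families may be shared, which adds uncertainty to these low counts.

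CD300LB had 0 reads in both regression dogs. Against a floor of 3 reads over that group, 0.0751 CPM, it was at least 16.9-fold higher in the pooled luteolysis reads, at 1.27 CPM. Amy alone, with 1 read and 0.0751 CPM, was at that floor. Mean levels of TREML2 were 0.058 ± 0.0375 CPM at mid-gestation, 0.534 ± 0.463 at luteolysis, 0.0308 ± 0.0287 after antigestagen and 0.125 ± 0.0312 in regression. CD300E had means of 0.032 ± 0.048, 0.734 ± 0.49, 0.0736 ± 0.0488 and 0.178 ± 0.183 CPM, and CD300LB of 0.266 ± 0.333, 1.11 ± 0.902, 0.515 ± 0.116 and 0 CPM, in the same order of groups.

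MS4A7, a 4-span membrane protein of macrophages, behaved differently. Its values were 13.2, 6.01, 13.1, 8.82 and 11.4 CPM at mid-gestation, 13.3, 17.4 and 31.4 at luteolysis (Amy, Kimba, Senta), 16.1, 9.02, 12.3, 30.7 and 23.8 after antigestagen (Citir, Suzan, Birnur, Seran, Zeynep), and 5.43 and 4.26 in regression (Lissy, Mara). Both regression dogs were below the 13 others, and the log2 ratio for luteal regression over luteolysis was −2.09 ± 0.53. CD5L, a protein that macrophages secrete, went the other way at luteolysis. It had 18 to 53 reads at mid-gestation, 0, 6 and 7 reads in Amy, Kimba and Senta, 1 to 41 after antigestagen, and 14 and 8 in regression. Its means were 1.56 ± 0.866, 0.214 ± 0.204, 0.897 ± 0.954 and 0.548 ± 0.194 CPM. It was no DEG by edgeR, and DESeq2 called it in mid-gestation over luteolysis.

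The markers of myeloid cells were read beside these receptors. Names were known only through the study's lists, so that 8 of 17 monocyte and macrophage markers and 3 of 13 neutrophil markers could be matched. All of these had been listed as differing, and their values too are a description. The summed level of the 8 macrophage markers was 401 to 880 CPM at mid-gestation, 501 to 807 at luteolysis, 401 to 1125 after antigestagen and 203 to 243 in regression. Lysozyme (LYZ) was at 288 CPM in Kimba and 414 in Senta but at 54.6 in Amy, inside the mid-gestation range of 40.3 to 91.6. ITGAM, the integrin CD11b, was at 26 CPM in Kimba, 8.52 in Senta and 4.50 in Amy, and MRC1, the mannose receptor, at 207, 121 and 98.9. The other 5 macrophage markers, named after their values were seen, did not follow one pattern. The complement genes C1QB and C1QC were at 152 and 156 CPM in Amy, inside the mid-gestation ranges of 132 to 330 and 123 to 315, and below them in Kimba, with 65.0 and 62.3, and in Senta, with 101 and 99.4. TYROBP, the adaptor of CLEC5A and TREM1, was at 16, 24.7 and 32.8 CPM in Amy, Kimba and Senta and at 11.3 to 21.4 at mid-gestation. AIF1, at 14.4, 15.9 and 18.4, was within or near its mid-gestation range of 9.04 to 18.1, and SPI1, at 5.03, 12.1 and 11.5, within or near 4.47 to 11.1. The 3 neutrophil markers summed to 6.45 to 33.4 CPM at mid-gestation, 7.21 to 71.4 at luteolysis, 18.9 to 43.0 after antigestagen and 4.41 to 6.80 in regression. Of these, S100A9 was at 18.7 CPM in Kimba, 19.8 in Senta and 1.73 in Amy, and CSF3R at 48.6, 11.8 and 1.13. LTF, the remaining marker, also named after its values were seen, was highest in Amy among the luteolysis dogs, at 4.35 CPM against 4.07 in Kimba and 3.36 in Senta, with 1.54 to 3.45 at mid-gestation. The part of cell numbers in the receptor values was not tested.

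**Figure D3:**
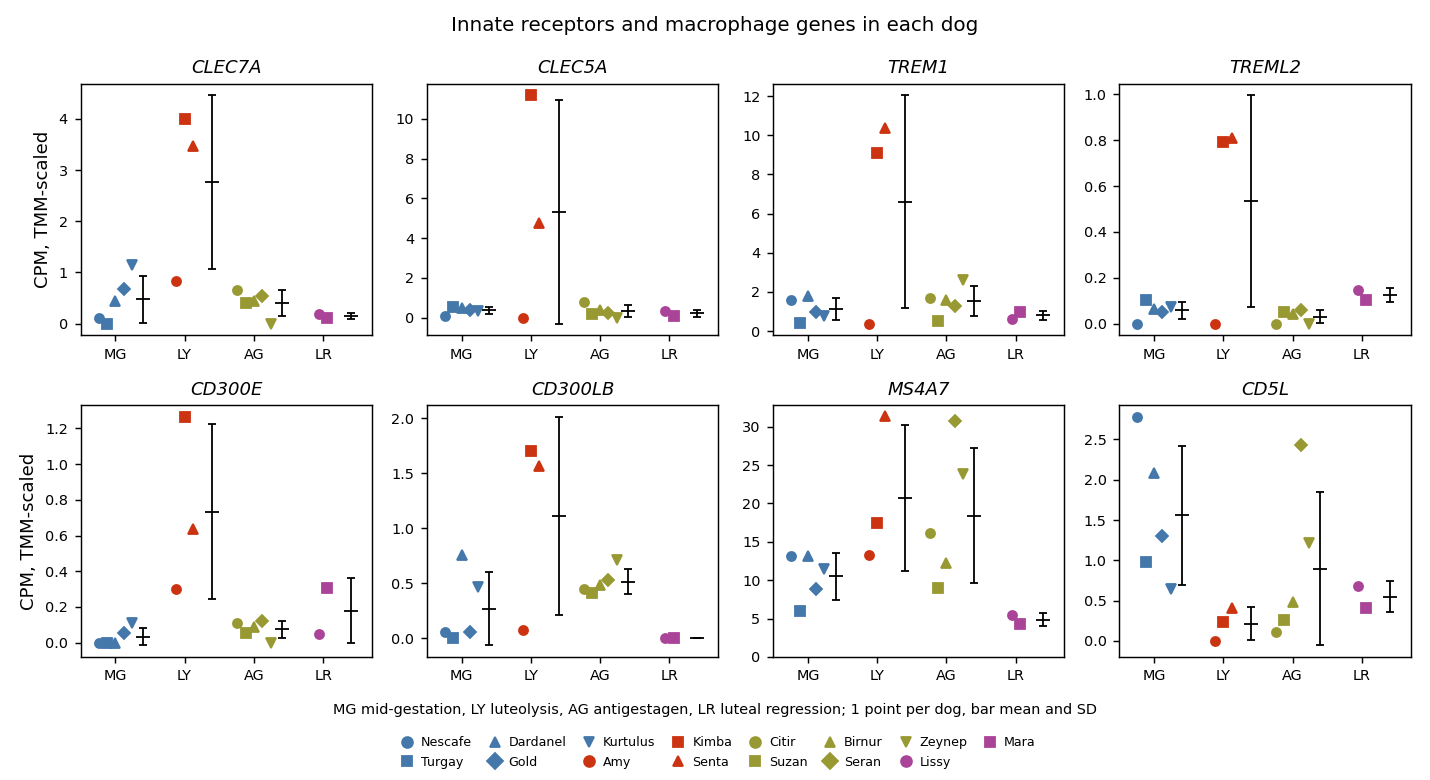
CPM of the 8 innate receptors and macrophage genes, 1 point per dog, with mean and SD as bars. Kimba and Senta (red square and triangle) stand above the other 13 dogs in the first 6 panels, Amy (red circle) does not, and MS4A7 is lowest in the 2 regression dogs.

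Of the 7 genes of antigen presentation and costimulation, 5 were highest in Kimba and Senta (CD80, CD86, CD70, CD48 and CD58). CD74, the invariant chain that chaperones MHC class II, was among the members with most reads. Its CPM were 1235.8, 838, 1578.0, 625 and 572 at mid-gestation, 2251.3, 753 and 1901.3 at luteolysis (Amy, Kimba, Senta), 1233.9, 1002.9, 1492.5, 1275.3 and 1393.2 after antigestagen, and 753 and 619.9 in regression. Here Amy was the highest dog, and Kimba lay inside the mid-gestation range. The means were 970 ± 429, 1635 ± 784, 1279.6 ± 185 and 686 ± 93.8 CPM.

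CD80 and CD86 are the paired ligands of CD28 and CTLA4 on T cells. CD86 was at 20.4, 7.19, 27.8, 14 and 17.9 CPM at mid-gestation, at 16.6 in Amy, 38.2 in Kimba and 40.1 in Senta, at 19.7, 13.6, 15.3, 27.3 and 26 after antigestagen, and at 11.2 and 12.6 in regression. CD80 had means of 4.15 ± 1.62 CPM at mid-gestation, 8.83 ± 3.02 at luteolysis, 4.75 ± 1.30 after antigestagen and 3.42 ± 0.683 in regression. For both ligands Kimba and Senta were above the other 13 dogs, Amy was inside the mid-gestation range, and neither was a DEG by edgeR over all dogs. DESeq2 called CD80 in mid-gestation over luteolysis and both in luteal regression over luteolysis. The log2 ratios for mid-gestation over luteolysis were −1.09 ± 0.37 for CD80 and −0.86 ± 0.37 for CD86.

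CD83, a surface protein of mature dendritic cells, was lower at luteolysis and after antigestagen. It was at 84.0, 137, 99.9, 91.3 and 72.1 CPM at mid-gestation, 65.3, 28.6 and 46.0 at luteolysis, 46.1, 52.5, 55.5, 52.5 and 64.7 after antigestagen, and 86.8 and 55.5 in regression. All luteolysis and all antigestagen dogs were below the lowest mid-gestation dog. CD83 had a log2 ratio of 1.06 ± 0.26 for mid-gestation over luteolysis and 0.84 ± 0.22 for mid-gestation over antigestagen. By edgeR it was a DEG in the former but not in the latter contrast (adjusted p = 0.509), where DESeq2's Wald test called it. The study's lists for both contrasts held CD83, so these values are a description.

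CD70, the ligand of CD27 on lymphocytes, had 66 of its 79 reads in the luteolysis dogs. Kimba had 29 reads, Senta 33 and Amy 4. At mid-gestation 4 dogs had 0 reads and Kurtulus 3, after antigestagen Birnur had 6, Zeynep 4 and the others 0, and both regression dogs had 0. Against a floor of 3 reads over the regression dogs, CD70 was at least 15.7-fold higher in the pooled luteolysis reads. In CPM the means were 0.0216 ± 0.0482 at mid-gestation, 1.12 ± 0.807 at luteolysis, 0.133 ± 0.189 after antigestagen and 0 in regression.

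CD48, which binds CD244 on NK cells, had means of 8.07 ± 2.63 CPM at mid-gestation, 14.2 ± 8.11 at luteolysis, 8.20 ± 4.28 after antigestagen and 3.32 ± 0.701 in regression. Both regression dogs, at 3.81 and 2.82 CPM, were below all others, and Amy, at 6.16 CPM, was inside the mid-gestation range. CD58, the ligand of CD2, was at 8.82, 8.58, 11.1, 9.34 and 9.31 CPM at mid-gestation, 12.4, 20.1 and 20.0 at luteolysis, 7.34, 9.43, 10.4, 11.7 and 7.47 after antigestagen, and 8.51 and 6.88 in regression. All 3 luteolysis dogs were above the 12 others, including Amy by a small distance. Its log2 ratio was −0.89 ± 0.22 for mid-gestation over luteolysis, 0.91 ± 0.22 for luteolysis over antigestagen and −1.19 ± 0.29 for luteal regression over luteolysis. CD58 means were 9.43 ± 0.991, 17.5 ± 4.42, 9.27 ± 1.89 and 7.69 ± 1.15 CPM.

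Of the dendritic cell markers, 3 of 10 could be matched, and their sum was 19.8 to 36.9 CPM at mid-gestation, 50.1 to 236 at luteolysis, 19.2 to 28.7 after antigestagen and 15.9 to 19.6 in regression. CCR7, the receptor that guides mature dendritic cells and naive T cells to lymph nodes, was at 207 CPM in Kimba and 198 in Senta, at 0.676 in Amy, and at 0.202 to 12.7 in all other dogs. ITGAE was at 10.4, 15.8 and 11.9 CPM in Amy, Kimba and Senta and at most 7.91 elsewhere. BATF3, the remaining marker, named after its values were seen, was highest in Amy of all dogs, at 39.0 CPM, and at 13.2 in Kimba and 20.1 in Senta, inside the mid-gestation range of 11.5 to 30.4. The part of dendritic cell numbers in the costimulatory values was not tested.

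The T and NK cell antigens were low in all 3 luteolysis dogs, Amy included. CD2, the adhesion receptor whose ligand is CD58, was at 7.45, 6.94, 15.6, 7.15 and 6.54 CPM at mid-gestation (Nescafe, Turgay, Dardanel, Gold, Kurtulus), at 4.20, 1.94 and 2.26 at luteolysis (Amy, Kimba, Senta), at 5.67, 4.41, 6.01, 11.3 and 8.78 after antigestagen, and at 6.06 and 4.72 in regression. Every luteolysis dog was below the 12 others. CD2 had a log2 ratio of 1.65 ± 0.41 for mid-gestation over luteolysis and −1.38 ± 0.40 for luteolysis over antigestagen. In the RefSeq annotation a single coding gene lies between CD58 and CD2, so that the genes of this ligand and its receptor, nearly adjacent, differed in opposite directions at luteolysis.

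CD3E, a signalling chain of the T cell receptor, spread widely within groups. It was at 0.787, 1.28, 4.04, 3.08 and 0.827 CPM at mid-gestation, 0.676, 0.791 and 0.29 at luteolysis, 0.667, 0.82, 0.872, 1.72 and 3.13 after antigestagen, and 0.88 and 1.18 in regression. Mid-gestation and luteolysis overlapped, and CD3E was no DEG by edgeR. CD96, which binds PVR on other cells, was at 3.31, 1.28, 1.83, 1.36 and 0.971 CPM at mid-gestation, 0.676, 0.553 and 0.58 at luteolysis, 1.56, 0.564, 2.09, 1.36 and 2.22 after antigestagen, and 0.929 and 0.667 in regression. Here the luteolysis dogs lay below all mid-gestation dogs, with a log2 ratio of 1.53 ± 0.52 for mid-gestation over luteolysis.

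CD7, an early antigen of T and NK cells, had 9 to 27 reads per dog at mid-gestation and 2, 4 and 3 in Amy, Kimba and Senta. Its means were 0.863 ± 0.389 CPM at mid-gestation, 0.161 ± 0.0121 at luteolysis, 0.595 ± 0.179 after antigestagen and 0.453 ± 0.157 in regression, and every luteolysis dog was below the 12 others. CD160, a receptor of cytotoxic lymphocytes that binds TNFRSF14, had means of 0.964 ± 0.315, 0.367 ± 0.0581, 0.729 ± 0.247 and 0.604 ± 0.162 CPM, and its luteolysis dogs were also below all others. The means of CD2 were 8.75 ± 3.87, 2.80 ± 1.23, 7.23 ± 2.78 and 5.39 ± 0.949 CPM, those of CD3E 2.00 ± 1.47, 0.585 ± 0.262, 1.44 ± 1.03 and 1.03 ± 0.212, and those of CD96 1.75 ± 0.923, 0.603 ± 0.0643, 1.56 ± 0.662 and 0.798 ± 0.185. Of the 5 genes, CD2 and CD7 were DEG by edgeR in mid-gestation over luteolysis, and DESeq2 called all 5.

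**Figure D4:**
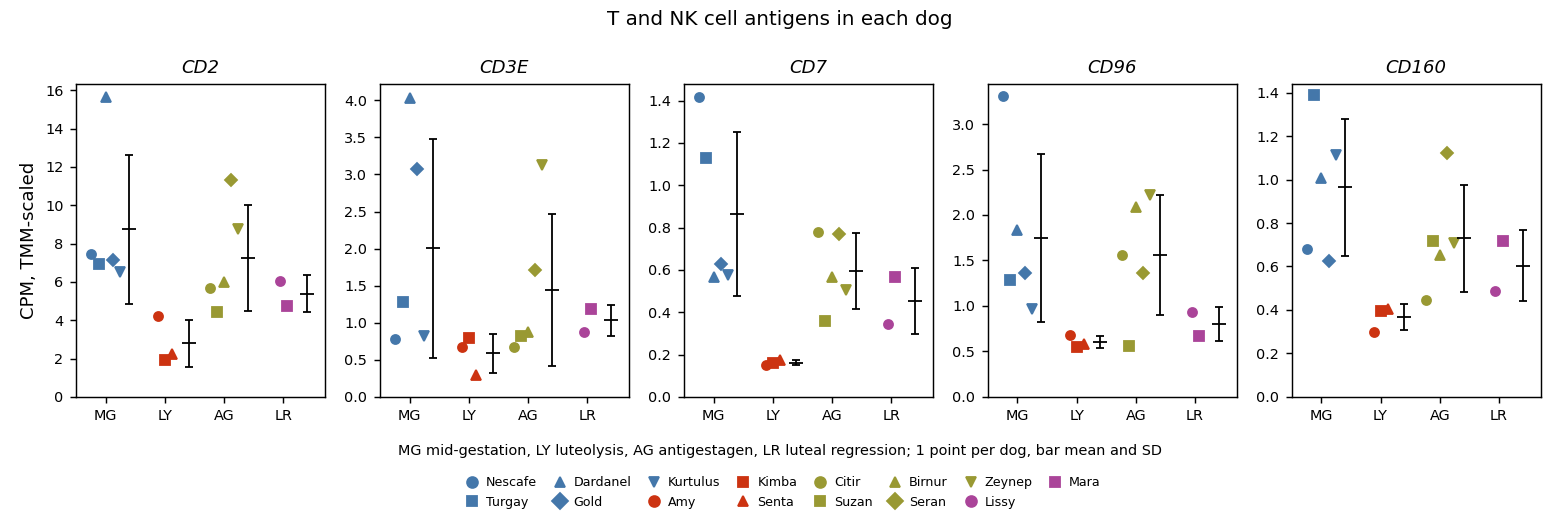
CPM of the 5 T and NK cell antigens, 1 point per dog, with mean and SD as bars. The 3 luteolysis dogs, including Amy, form the lowest group mean in each panel; for CD2, CD7 and CD160 they lie below all other dogs.

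Lymphocyte markers outside the set were few. Of 17 T cell markers only ZAP70 was matched, at 1.26 to 2.65 CPM at mid-gestation, 0.464 to 1.13 at luteolysis, 0.445 to 1.92 after antigestagen and 1.08 to 1.66 in regression. Of 13 NK and cytotoxic markers 4 were matched. GZMA, a granzyme of cytotoxic cells, was at 0.826, 0.514 and 0.174 CPM in Amy, Kimba and Senta and at 0.992 to 2.90 at mid-gestation. GZMB, another granzyme, was at 206 CPM in Kimba and 110 in Senta, at 0.676 in Amy, and at most 4.41 elsewhere. The cytotoxic list therefore summed to 2.48 to 207 CPM at luteolysis, 3.95 to 7.91 at mid-gestation, 3.45 to 8.28 after antigestagen and 2.67 to 4.99 in regression. The remaining markers GZMK and FASLG, named after their values were seen, were not high in Kimba and Senta. GZMK was at 0.826, 0.870 and 0.812 CPM in Amy, Kimba and Senta and at 0.647 to 2.31 at mid-gestation. FASLG was at 0.150, 0.316 and 0.290 CPM and at 0.288 to 0.631. POU2AF1, the only matched gene of 12 B cell markers, was at 0.633 CPM in Kimba and 1.51 in Senta and at most 0.808 elsewhere. CMA1, the only one of 7 mast cell markers, was at 17.6 and 10.7 CPM in these dogs and at most 8.31 elsewhere.

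Among the 40 partners and adaptors of the members, 7 were matched. PVR, the ligand shared by CD96 and TIGIT, was at 17.8 CPM in Kimba and 19.8 in Senta, at 3.23 in Amy, and at 0.771 to 4.79 in the other groups. TIGIT, an inhibitory receptor of T and NK cells, was highest in Amy with 154 CPM, against 5.73 in Kimba, 15.4 in Senta and at most 11 elsewhere. Amy thus combined low values of the 5 lymphocyte antigens with the highest TIGIT value of the series.

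The tetraspanins and other widely expressed antigens included the members with most reads. CD63, a tetraspanin of lysosomes and exosomes, was at 462, 445, 558, 501 and 466 CPM at mid-gestation, 602, 388 and 558 at luteolysis, 428, 376, 457, 697 and 808 after antigestagen, and 258 and 271 in regression. CD81, a tetraspanin that partners with integrins, was at 572, 430, 534, 492 and 411 CPM at mid-gestation, 392, 206 and 289 at luteolysis, 328, 339, 406, 566 and 681 after antigestagen, and 283 and 294 in regression. For CD63 only the regression dogs were apart from the rest, whereas for CD81 luteolysis and regression were both below mid-gestation. CD82, a tetraspanin known as a suppressor of metastasis, had means of 121 ± 21.4 CPM at mid-gestation, 225 ± 67.0 at luteolysis, 147 ± 30.4 after antigestagen and 69.8 ± 5.94 in regression. Its log2 ratio was −0.89 ± 0.22 for mid-gestation over luteolysis and −1.69 ± 0.29 for luteal regression over luteolysis, and the regression dogs, at 74.0 and 65.6 CPM, were below all others.

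CD99, an adhesion molecule of leukocytes and endothelium, was at 1343.8, 1214.7, 2052.5, 1412.0 and 804 CPM at mid-gestation, 953, 477 and 376 at luteolysis, 1327.3, 1012.6, 1332.6 and 2062.6 in Citir, Suzan, Birnur and Seran and 1825.3 in Zeynep after antigestagen, and 1005.4 and 629 in regression. Amy lay inside the mid-gestation range, and Kimba and Senta were below all other dogs. CD99 had a log2 ratio of 1.18 ± 0.36 for mid-gestation over luteolysis and −1.33 ± 0.36 for luteolysis over antigestagen. CD24, a small glycosylphosphatidylinositol-anchored sialoprotein, was low throughout, with 48 reads in Kimba, 50 in Senta, 8 in Amy, 0 to 12 at mid-gestation, 0 to 38 after antigestagen, and 31 and 25 in regression. Its means were 0.234 ± 0.245, 1.8 ± 1.15, 0.597 ± 0.785 and 1.40 ± 0.165 CPM. Means of CD63 were 486 ± 44.8, 516 ± 113, 553 ± 188 and 264 ± 9.21 CPM, of CD81 488 ± 67.9, 296 ± 93.1, 464 ± 154 and 289 ± 7.63, and of CD99 1365 ± 451, 602 ± 308, 1512 ± 423 and 817 ± 266.

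CLEC14A and CD93 are related lectin-domain proteins of endothelium. CD93 was at 36.3, 9.09, 21.6, 21.5 and 27.2 CPM at mid-gestation, 22.3, 45.2 and 54.9 at luteolysis, 28.2, 21.9, 37.7, 45.0 and 29.1 after antigestagen, and 17.8 and 15 in regression. CLEC14A was at 14.4, 8.17, 11.2, 12.3 and 9.02 CPM at mid-gestation, 17.3, 13.4 and 23.0 at luteolysis, 16.8, 8.66, 9.85, 16.7 and 7.27 after antigestagen, and 7.92 and 7.34 in regression. CLEC11A, a secreted lectin-domain growth factor of bone and marrow, was at 12.9, 9.97, 10.9, 13.3 and 9.78 CPM at mid-gestation, 10.1, 6.76 and 5.74 at luteolysis, 6.78, 10.5, 11.2, 11.9 and 9.09 after antigestagen, and 9.78 and 10.2 in regression. None of the 3 was a DEG by edgeR over all 15 dogs. DESeq2 called CLEC14A and CD93 in luteal regression over luteolysis and CLEC11A in mid-gestation over luteolysis, and edgeR without Amy called CD93 in both contrasts and CLEC11A in the second. Mid-gestation, luteolysis and antigestagen overlapped, and the regression dogs were below all luteolysis dogs for CLEC14A and CD93. CLEC14A means were 11 ± 2.5, 17.9 ± 4.80, 11.8 ± 4.55 and 7.63 ± 0.413 CPM, CD93 means 23.1 ± 9.89, 40.8 ± 16.7, 32.4 ± 9.01 and 16.4 ± 2.03, and CLEC11A means 11.4 ± 1.65, 7.52 ± 2.26, 9.89 ± 2.03 and 9.97 ± 0.269.

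The endothelial markers, 7 of 14 matched, summed to 344 to 911 CPM at mid-gestation, 517 to 1064 at luteolysis, 606 to 1259 after antigestagen and 372 to 385 in regression. PECAM1 was at 114, 282 and 288 CPM in Amy, Kimba and Senta and at 58.2 and 67.9 in regression, and the angiopoietin receptor TEK at 93.2, 136 and 165 CPM and at 52.7 and 51.3. Of 2 further markers, chosen after their values were seen, ENG was at 78.8, 78.1 and 78.6 CPM in Amy, Kimba and Senta, in the low part of its mid-gestation range of 64.8 to 224. ROBO4, at 10.5, 45.5 and 56.4, was below every mid-gestation dog in Amy and Kimba, the lowest mid-gestation value being 46.0. Of 9 pericyte and fibroblast markers 4 were matched. Among them the collagen gene COL1A1 was at 400, 832 and 249 CPM at luteolysis and at 605 to 4144.4 CPM at mid-gestation, and COL3A1 at 683, 1246.1 and 437 CPM and at 1076.4 to 3674.7. Only PRLR, the prolactin receptor, was matched of 10 luteal steroidogenic markers, at 65.8 to 175 CPM over all dogs. PPBP, a platelet chemokine and 1 of 2 matched among 8 erythroid and platelet markers, was at 12.5 CPM in Zeynep and at most 3.11 elsewhere. The remaining marker HBA, named after its values were seen, was at 790 CPM in Zeynep and at most 70.8 elsewhere. The part of the share of these cells in the members' values was not tested.

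The contrasts of luteal regression with mid-gestation and with antigestagen had no list in the choice of members, although they share their dogs with contrasts that did. Among the members, 18 were in the study's list for luteal regression over luteolysis and 22 in that for mid-gestation over luteolysis. Values of these same regression and mid-gestation dogs therefore chose the members. The signs, medians and counts without overlap in both contrasts are a description, and nothing is read from them. In luteal regression over mid-gestation, 0 of 26 members tested were DEG by edgeR, beside 0% of all genes in either direction. At an unadjusted p below 0.05 there were 7 members (26.9%), where 14.1% of all genes reached it, and DESeq2 called 1 member, CD63, beside 2.26% of all genes. The log2 ratio was negative in 25 of 26 members with a median of −0.61, and negative in 51.2% of all genes with a median of −0.02. The smallest adjusted p among the members was 0.319 (edgeR). In this contrast 12 members, CD7 among them, were lower in both regression dogs than in all 5 mid-gestation dogs. Only 1, CD24, was higher, where all genes gave 16.4% lower and 14.1% higher. CLEC7A and CD7 reached the filter's mean count at mid-gestation but not in regression. CD24 reached it in regression but not at mid-gestation. The filter favoured these directions as well, and nothing is read from the direction of these or the other members.

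The members of smallest adjusted p against mid-gestation were mostly widely expressed. CD63 had a log2 ratio of −0.88 ± 0.29 (edgeR adjusted p = 0.319), CD82 of −0.79 ± 0.27 (adjusted p = 0.319), CD81 of −0.76 ± 0.31 (adjusted p = 0.33) and CD47 of −0.42 ± 0.16 (adjusted p = 0.324). MS4A7 was at −1.12 ± 0.48 and CD48 at −1.28 ± 0.54, both with an adjusted p of 0.335. CD24 was the single member with a positive ratio, 2.56 ± 1.04 (adjusted p = 0.33), from 31 and 25 reads in regression and 23 reads in all mid-gestation dogs together.

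In luteal regression over antigestagen, 0 of 24 members tested were DEG by edgeR, beside 0% of all genes in either direction, 10 had an unadjusted p below 0.05, all lower, where 17.1% of all genes reached it, and DESeq2 called 4 (MS4A7, CD59, CD63 and CD82), beside 6.31% of all genes. The log2 ratio was negative in 21 members, with a median of −0.74 against −0.02 over all genes. In 11 members both regression dogs were below all 5 antigestagen dogs and in 0 above, where all genes gave 15.4% below and 14.3% above. The same regression dogs entered the study's list for luteal regression over luteolysis, through which many members were chosen. Nothing is read from these signs, medians and counts. CD82 had a log2 ratio of −1.08 ± 0.27 (adjusted p = 0.154), MS4A7 of −1.92 ± 0.50 (adjusted p = 0.169), CD63 of −1.07 ± 0.29 (adjusted p = 0.176) and CD59 of −1.02 ± 0.33 (adjusted p = 0.198), all by edgeR. CD83, CD24 and CLEC11A were the 3 members with a positive ratio, at 0.39 ± 0.29, 1.12 ± 1.02 and 0.01 ± 0.27. None of these differences passed the limits of the test.

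**Figure D5:**
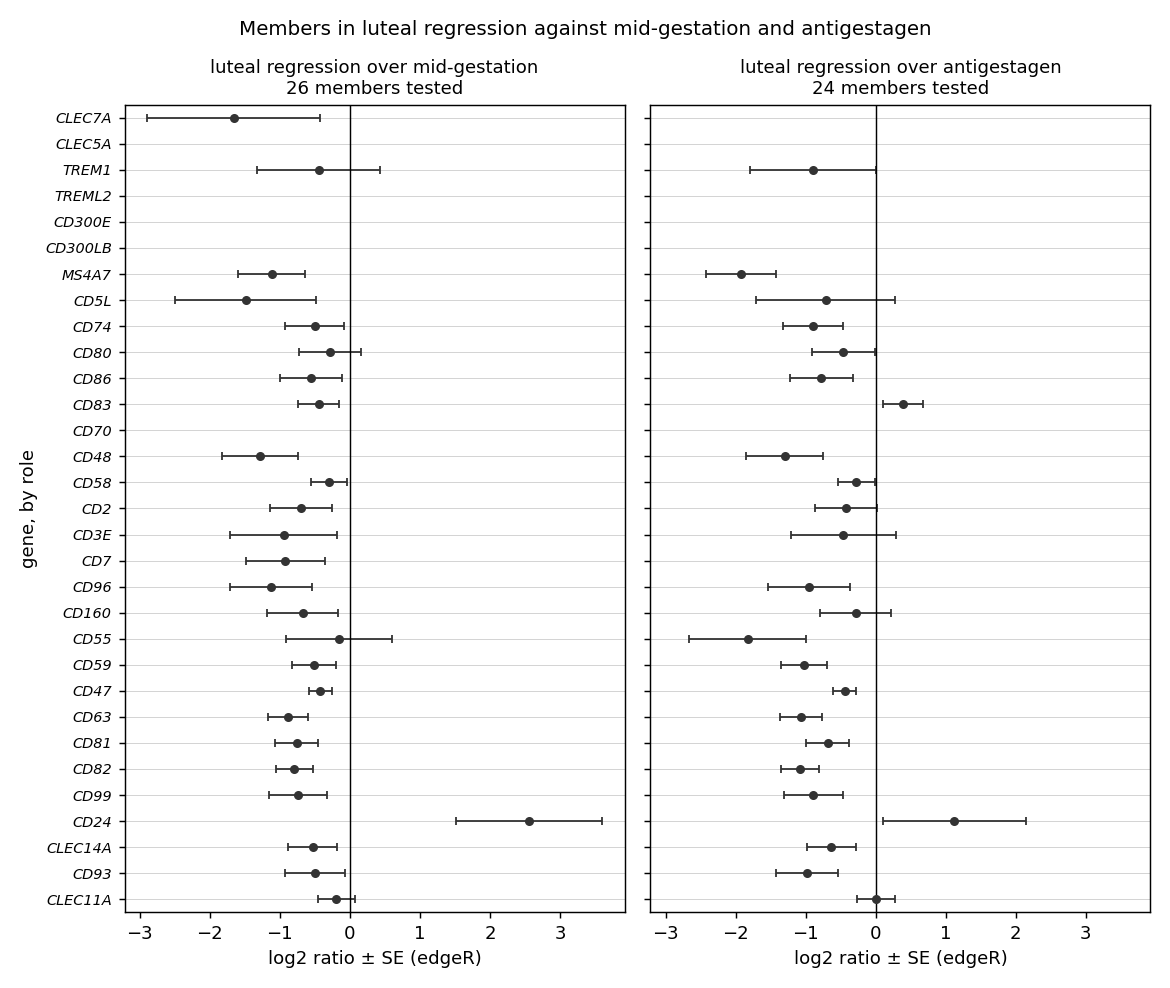
Log2 ratios with SE (edgeR) of the members tested in luteal regression over mid-gestation (left, 26 members) and over antigestagen (right, 24 members), by role; rows without a point were not tested. Most points lie left of 0, CD24 lies right of it in both panels, and no member passed the limits of the test.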

How the data were processed

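RNA was extracted from whole canine CL, poly-A selected and sequenced from a single end, with 1 library per dog and 15 dogs in 4 groups read from the labels. The authors aligned reads to CanFam3.1 with STAR 2.5.1b after base calling with CASAVA 1.8 and bcl2fastq 1.8.4, used featureCounts for Ensembl genes and deposited the raw read counts unfiltered; from 10000 reads upward they hold 4 significant digits (3148 values). The strand setting is not given in the sources used here, so that reads of a gene and of an antisense partner cannot be told apart. The authors' columns of fold changes and p-values were not used. Their lists of differentially expressed genes served to pair identifiers with symbols, and so limited the members and matched markers to listed genes.

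The 14922 genes whose mean count reached 10 in a group were fitted over all dogs with edgeR 4.0.16 in R 4.3.3 (TMM scaling, quasi-likelihood F-test, two-sided, Benjamini-Hochberg adjustment over the genes that reached this mean in a compared group). DEG had p below 0.01 and adjusted p below 0.1. The SE was the absolute log2 ratio divided by the square root of F. Log2 CPM for the map used a prior count of 2. The scripts were tested on simulated counts. Alternatives were DESeq2 1.42.0 (size factors; Wald test), no filter, a limit of 50, the dogs of the compared groups alone, and each dog left out. Total counts per dog, 8558743 to 26284315, limit the precision of members with few reads; floors of 3 reads cover counting error only.

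Every member is named with its level in the 4 groups. Values of every dog are given for the members in 3 or more of the study's lists and for the 3 of highest mean CPM in each role; reads stand in for CPM in the lowest. Other genes were at most 4 called genes of smallest p in each marker list, or else the 2 of highest mean CPM. The members and lists were chosen with earlier results of these data known. Nothing says which dogs came from which of the study's collection sites. Sequences of the members were not used here.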

Additional observations from a re-analysis of the deposited data

Results flagged for a closer look

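Within the groups of 5 dogs, a dog was singled out when its gap to the nearest other dog exceeded the 95% critical value of Dixon's ratio; 62 groups were examined, and chance singles out about 1 group in 20. This happened in 4 members. CD55 was at 111 CPM in the mid-gestation dog Dardanel and at 71.3 to 82.8 in the other mid-gestation dogs. CD2 was at 15.6 CPM in the same dog and at 6.54 to 7.45 in the others. CD70 was at 0.108 CPM in the mid-gestation dog Kurtulus, from 3 reads, while the others had 0 reads. CD24 was at 1.95 CPM in the antigestagen dog Suzan, from 38 reads, and at 0 to 0.523 in the other antigestagen dogs.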

How the results depend on the processing

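No paired analysis was possible because each dog gave 1 library in 1 group, and the labels link no dogs of different groups. The numbers of members called depended on the test and on single dogs. DESeq2's Wald test called 18 members in luteal regression over luteolysis (10.6% of all genes), 21 in mid-gestation over luteolysis (11.9%), 1 in mid-gestation over antigestagen (0.604%), 11 in luteolysis over antigestagen (10.3%), 1 in luteal regression over mid-gestation (2.26%) and 4 in luteal regression over antigestagen (6.31%). With the dogs of the 2 groups alone, edgeR called 7 members in mid-gestation over luteolysis (2.88%) and 3 (CD63, CD81 and CD82) in luteal regression over mid-gestation (5.24%), and 0 both in luteal regression over luteolysis (0%) and in luteolysis over antigestagen (0.0207%). With each dog left out, 0 to 16 members were called in luteal regression over luteolysis, 2 to 22 in mid-gestation over luteolysis and 0 to 14 in luteolysis over antigestagen; the highest values came without Amy. In luteal regression over luteolysis, 0 were called without Senta, without Lissy or without Mara; with 1 regression dog left, it is assumed to vary like the other groups. In mid-gestation over luteolysis, 3 were called without Kimba and 2 without Senta. In luteolysis over antigestagen, 0 were called without Kimba or without Senta, 2 without Birnur and 3 without Zeynep. Of the log2 ratios of single members under all alternatives, 1812 kept direction and call, 113 lost the call, 64 gained it, 33 uncalled ones changed sign, and 0 called ones changed direction. DESeq2's size factors moved the median of all genes by at most 0.03 (log2). The comparison with unlisted genes of the same name families was not run, because no table used here pairs their symbols with the identifiers of the count table.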
